A study of Arabidopsis thaliana with 8 samples.

Results

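A run of tandem genes on chromosome 4 of Arabidopsis thaliana that encode hybrid proline-rich, lipid transfer-type proteins was examined, from AZI1 (AT4G12470) through EARLI1 (AT4G12480) to AIR1 (AT4G12550). Its 9 members were taken by locus, and 8 of them were among the 20701 gene loci of the deposited count table; AT4G12530 was not listed there and was not analysed here. All 8 passed the filter on low counts, which left 20298 loci, and AT4G12490 passed only through its wild-type counts. Between AZI1 and AIR1 a RefSeq annotation of a later build than the one used by the authors places 4 further loci, 1 of which, AT4G12540, was in the count table. The name table carries symbols for AZI1, EARLI1 and AIR1 and no further description of the other members.

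Messenger RNA was sequenced from whole seedlings of accession Columbia 10 days after germination, either wild type or carrying 35S:CAHB12, a coffee homeobox gene of the homeodomain-leucine zipper class I driven by the constitutive 35S promoter. Both groups were grown at 22 °C with 18 h of light and 6 h of dark, and RNA was taken from pools of 50 seedlings. Each group had 2 pools, which the labels call biological replicates, with 15424261 to 19436632 counts per library. The design text speaks of more than 1 transgenic line, but no sample label says which line a pool came from. All listed loci are Arabidopsis loci, so transgene RNA was not analysed here.

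Hybrid proline-rich proteins are small secreted or membrane-associated plant proteins that join a proline-rich stretch to a cysteine-rich domain like that of lipid transfer proteins. AZI1 is named for its induction by azelaic acid and is known for its part in systemic acquired resistance, in which a local infection primes distant leaves for defence. EARLI1 was found as an early aluminium-induced gene and is also known as a cold-responsive gene, and AIR1 was found as an auxin-induced gene of root cultures.

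The genes were chosen by their place in the run, and the run was selected on the transgenic against wild-type difference of EARLI1 in these 4 libraries, so the differences of its members in that contrast are given as a description. The 4 genes at the AZI1 end had lower levels in both transgenic pools than in both wild-type pools. The 4 listed genes at the AIR1 end lay within 1.35-fold of their wild-type level. Levels are given as RPKM, reads scaled to the length of the gene and to the size of the library, computed from the counts with trimmed mean of M values (TMM) scaling, so that genes of the run can be compared per length.

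**Figure D1:**
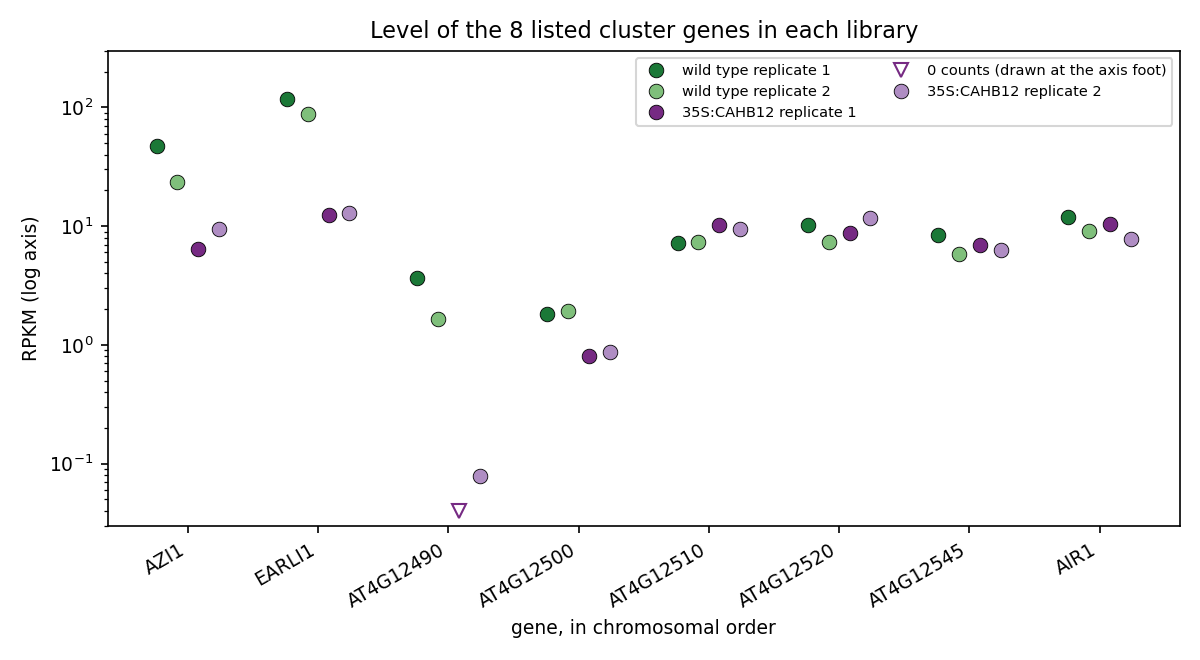
RPKM on a log axis of the 8 listed genes in chromosomal order, with 1 point per library (wild type in green, 35S:CAHB12 in purple); the open triangle marks a library with 0 counts. EARLI1 stood at 118 and 88.7 RPKM in wild type and at 12.5 and 12.9 RPKM in transgenic seedlings, whereas the genes from AT4G12510 to AIR1 stood between 5.81 and 11.9 RPKM in all 4 libraries.

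EARLI1 was the most abundant member. It had 1541 and 1427 counts in wild-type replicates 1 and 2, and 165 and 175 counts in transgenic replicates 1 and 2. Per length these were 118 and 88.7 RPKM against 12.5 and 12.9 RPKM, so that the lower wild-type pool still held 6.87 times the level of the higher transgenic pool. By edgeR's quasi-likelihood fit over all genes EARLI1 was 8.12-fold lower, with a log2 fold change of -3.02 (SE 0.16, 95% interval -3.38 to -2.66). Among the 20701 loci it ranked 571 and 812 by RPKM in the wild-type pools and 6187 and 6047 in the transgenic pools. In pooled seedlings fewer cells that express a gene and less RNA per cell cannot be told apart.

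AZI1 was the second most abundant member in wild type, with 592 and 366 counts there, against 81 and 124 in the transgenic pools. Its levels were 47.4 and 23.7 RPKM in the wild-type pools and 6.42 and 9.54 RPKM in the transgenic pools. The groups did not overlap, but wild-type replicate 1 held 1.997 times the level of wild-type replicate 2, the widest gap between wild-type pools among the members with at least 50 counts in every library. The fitted log2 fold change of AZI1 was -2.14 (SE 0.33, 95% interval -2.91 to -1.38). It ranged from -2.57 without wild-type replicate 2 to -1.57 without wild-type replicate 1.

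AT4G12490, the next gene along, was rare. The wild-type pools gave 45 and 25 counts and the transgenic pools 0 and 1, which is 3.66 and 1.65 RPKM against 0 and 0.0782 RPKM. A count of 0 in transgenic replicate 1 allows a level of up to 0.190 CPM, at 3 counts, where CPM are counts scaled to the library size only. The pooled wild-type level was 64.2 times the pooled transgenic level, with an exact 95% counting interval of 11.2 to 2573 that covers counting error only. The fitted log2 fold change, -5.73, depends on the prior count of the fit and is no bound. The wild-type pools differed by 2.22-fold, again with replicate 1 the higher.

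AT4G12500 was low in every library, at 22 and 29 counts in the wild-type pools and 10 and 11 in the transgenic pools. Its levels were 1.81 and 1.93 RPKM against 0.813 and 0.869 RPKM, and the pools of a group differed by 1.07-fold in either genotype. The log2 fold change was -1.15 (SE 0.35, 95% interval -1.96 to -0.33), the fitted value nearest 0 among the 4 genes at this end.

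The genes at the other end had similar levels in both genotypes. AT4G12510 stood at 7.21 and 7.39 RPKM in wild type and at 10.1 and 9.53 RPKM in transgenic seedlings, with a log2 fold change of 0.43 (SE 0.18, 95% interval 0.0082 to 0.85). It was the 1 member with both transgenic pools above both wild-type pools. AT4G12520 stood at 10.3 and 7.36 RPKM in wild type and at 8.71 and 11.7 RPKM in transgenic seedlings, and the groups overlapped. AT4G12545 stood at 8.43 and 5.81 RPKM against 7.001 and 6.24 RPKM, with both transgenic pools between the wild-type pools. AIR1 stood at 11.9 and 9.15 RPKM against 10.4 and 7.74 RPKM, and its groups overlapped as well. The 95% intervals of their log2 fold changes were -0.30 to 0.74 for AT4G12520, -0.63 to 0.45 for AT4G12545 and -0.70 to 0.28 for AIR1. Leaving out 1 pool turned the sign for AT4G12520 (-0.018 without wild-type replicate 2 and -0.0092 without transgenic replicate 2) and for AT4G12545 (0.19 without wild-type replicate 1).

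Of the 8 tested members, 1 (EARLI1) passed as lower at a Benjamini-Hochberg adjusted p under 0.05 in edgeR, beside 0.0493% of all genes tested, and 0 passed as higher, beside 0.0345%. In edgeR 1 member, AT4G12510, was higher at an unadjusted p under 0.05, beside 3.7% of all genes, and 4 were lower, beside 4.22%. DESeq2 and limma called 0 members as higher. With DESeq2, AZI1 and AT4G12490 passed too, which made 3 lower members beside 0.227% of all genes. The same 3 passed without wild-type replicate 1 (beside 0.209%) and without wild-type replicate 2 (beside 1.25%), and EARLI1 alone passed without transgenic replicate 1 (beside 0.0534%) or transgenic replicate 2 (beside 0.0438%). limma on log2(RPKM + 0.5) called EARLI1 alone, beside 0.0197%, and at an adjusted p under 0.1 edgeR called EARLI1, AZI1 and AT4G12490, beside 0.0985%. The groups did not overlap for 4 members that were lower, beside 19.3% of all genes, and for 1 that was higher, beside 20.2%. AT4G12490 could enter these counts only through its wild-type pools, and the contrast was known when the run was chosen. For both reasons nothing is read from these counts.

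**Figure D2:**
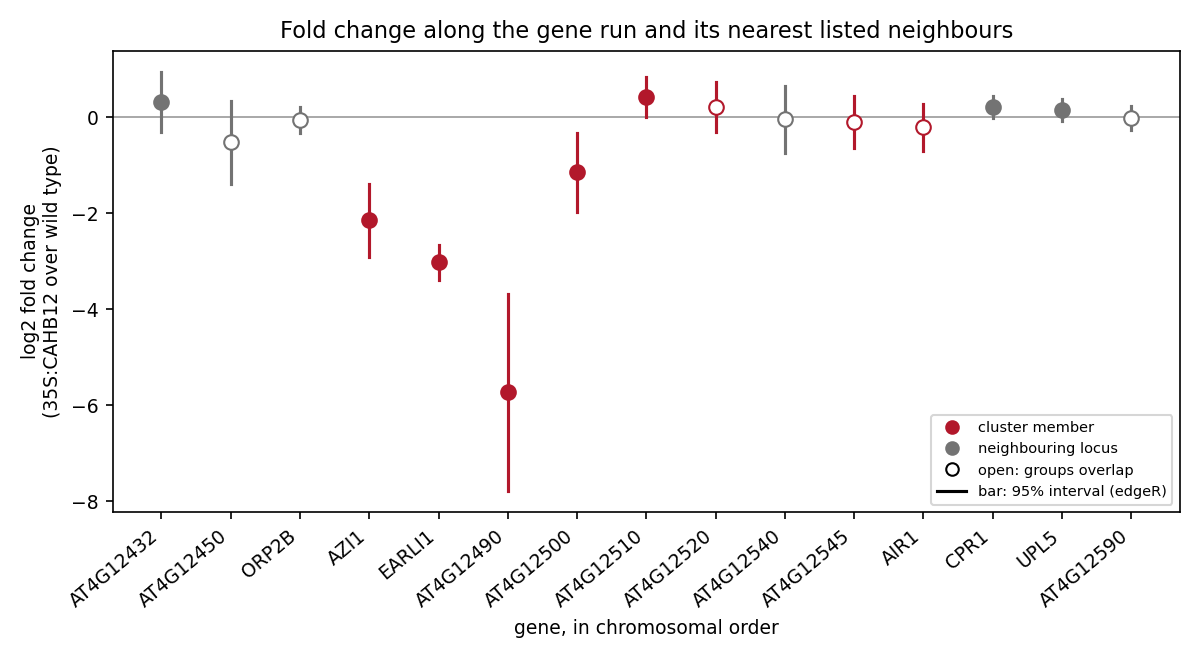
Log2 fold change (35S:CAHB12 over wild type) of the 8 tested members (red) and of the nearest listed loci (grey) in chromosomal order, with 95% intervals from edgeR as bars and open points where the groups overlapped. The values run from -2.14 at AZI1 through -5.73 at AT4G12490 to -1.15 at AT4G12500, and the other members and the neighbours lie between -0.52 and 0.43.

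The loci around the run were taken by position. The nearest listed loci before AZI1 were AT4G12432, AT4G12450 and the oxysterol-binding protein-related gene ORP2B (AT4G12460). ORP2B had 30.5 and 33.1 CPM in the wild-type pools and 33.4 and 28.3 CPM in the transgenic pools, and its log2 fold change was -0.045 (SE 0.12). AT4G12450 and AT4G12432 had -0.52 (SE 0.37) and 0.33 (SE 0.27). AT4G12432 had the same counts as the next locus before it, TPPF (AT4G12430), in all 4 libraries, so the same reads appear to stand for both. The 95% interval of ORP2B was -0.32 to 0.23, while that of AZI1 was -2.91 to -1.38.

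Within the run, AT4G12540 had levels of 2.62 and 1.97 CPM in the wild-type pools and 2.66 and 1.78 CPM in the transgenic pools, and the groups overlapped. On the far side, CPR1 (AT4G12560), an F-box protein gene known as a negative regulator of defence, stood at 45.7 and 50.7 CPM against 53.9 and 58.3 CPM (log2 fold change 0.22, SE 0.10). UPL5 (AT4G12570), a ubiquitin protein ligase gene, had 0.15 (SE 0.10), and AT4G12590 had -0.0094 (SE 0.11). Of the 21 loci that comprise the 10 nearest listed on each side and AT4G12540, 20 were tested and 0 passed in edgeR, DESeq2 or limma in either direction. An unadjusted p under 0.05 in edgeR was reached by 2, both higher, beside 3.7% of all genes. Among them was MYB42 (AT4G12350), at 8 and 7 counts in the wild-type pools against 15 and 14. It passed the filter on low counts only through its transgenic pools. With AT4G12432 and TPPF counted once, 19 loci were tested and their median log2 fold change was 0.083, beside 0.0065 over all genes tested. Both transgenic pools lay above both wild-type pools for 6 of the 19, beside 20.2% of all genes, and below them for 0, beside 19.3%.

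The make-up of the summed cluster level differed between the genotypes. Summed over the 8 genes, the run held 209 and 145.7 RPKM in the wild-type pools and 56.1 and 58.6 RPKM in the transgenic pools. The genes from AZI1 to AT4G12500 held 171 and 116 RPKM of that in wild type and 19.8 and 23.4 RPKM in transgenic seedlings. The genes from AT4G12510 to AIR1 held 37.9 and 29.7 RPKM in wild type and 36.3 and 35.2 RPKM in transgenic seedlings, and these ranges overlapped. The ratio of the first sum to the second was 4.52 and 3.91 in wild type against 0.544 and 0.664 in transgenic seedlings. This split of the run was drawn after the values were seen.

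EARLI1 alone made up 58.7 ± 3.03% (SD, n = 2) of the summed RPKM in wild type and 22.2 ± 0.231% (SD, n = 2) in transgenic seedlings. AZI1 made up 19.5 ± 4.52% and 13.9 ± 3.42% (SD, n = 2), and these ranges met at 16.3%. Within a library EARLI1 held 2.497 and 3.74 times the RPKM of AZI1 in wild type and 1.95 and 1.35 times in transgenic seedlings. Against AIR1, EARLI1 held 9.91 and 9.70 times the RPKM in wild type and 1.20 and 1.67 times in transgenic seedlings.

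**Figure D3:**
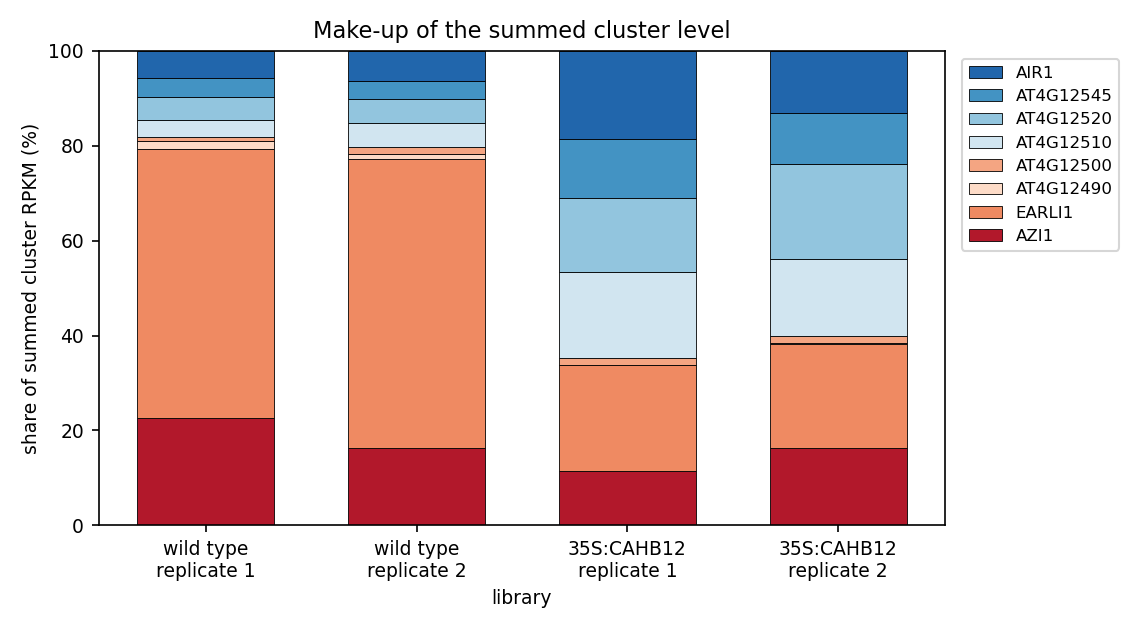
Share of the summed RPKM of the 8 listed genes held by each gene (y axis, percent) in each of the 4 libraries (x axis), as stacked bars in chromosomal order from the bottom. EARLI1 holds 56.6% and 60.9% in the wild-type pools and 22.4% and 22.0% in the transgenic pools, where AT4G12510, AT4G12520, AT4G12545 and AIR1 take larger shares.

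In wild type the order of levels began with EARLI1 and then AZI1, neither of which overlapped with the next gene. AIR1, AT4G12520, AT4G12510 and AT4G12545 followed, and neighbours in that order overlapped. AT4G12490 and AT4G12500 came last and overlapped with each other. In transgenic seedlings EARLI1 was still the highest in both pools. In transgenic replicate 1 AZI1, at 6.42 RPKM, lay below every AIR1-end gene (7.001 to 10.4 RPKM). In transgenic replicate 2 AZI1, at 9.54 RPKM, lay within their range (6.24 to 11.7 RPKM). AT4G12500 and AT4G12490 were lowest in both transgenic pools, and these 2 did not overlap. Of the neighbours AT4G12510 and AT4G12520 neither was the higher in every pool, with AT4G12520 at 1.43 and 0.996 times AT4G12510 in wild type and 0.859 and 1.23 times in transgenic seedlings. The tandem genes resemble each other, and how reads that match more than 1 of them were counted is not stated in the sources used here, so levels of single members are uncertain to that extent. The gene models of EARLI1, AT4G12490, AT4G12545 and AIR1 each overlap another annotated locus, none of which was listed in the table.

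The pattern over the 4 libraries was compared between genes as the root mean square difference of log2 CPM, each centred on its own mean, with a prior count of 2. The prior brings genes with very few counts in a library closer together, so AT4G12490, at 0 and 1 counts in transgenic seedlings, is given no place in this order. Of the other members AZI1 lay at 0.53 from EARLI1 and AT4G12500 at 1.002, and the AIR1-end genes lay between 1.40 and 1.72. The 4 libraries hold the contrast on which the run was selected. These distances therefore largely restate the fold changes, and nothing further is read from their order. Among all other genes tested, the nearest to EARLI1 were HEI10 (AT1G53490; 0.432), GSL09 (AT5G36870; 0.567) and UF3GT (AT5G54060; 0.579). The HEI10 gene model overlaps those of MRD1 and MUM4, both listed, with which reads can be shared. MRD1 was itself called by edgeR, so the pattern may not be that of HEI10 alone. GSL09 was rare, at 13 and 14 counts in the wild-type pools against 2 and 2, so its distance too depends on the prior. Both GSL09 and UF3GT passed the filter on low counts only through their wild-type pools. Their place among the lower genes was therefore partly fixed beforehand.

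Nearest to AZI1 was BHLH100 (AT2G41240), a transcription factor gene of the iron deficiency response, at a difference of 0.0807. Its wild-type pools held 6.32 and 2.69 CPM and its transgenic pools 0.695 and 1.17 CPM, so that wild-type replicate 1 and transgenic replicate 2 were the higher pools of their groups, as for AZI1. UF3GT, a flavonoid glycosyltransferase gene, followed at 0.235 and at 0.309 came ATSDI1 (AT5G48850), a gene induced by sulfur deficiency. In the transgenic pools BHLH100 had 11 and 19 counts and UF3GT 4 and 10, so the prior bears on their distances too. UF3GT also passed the filter on low counts only through its wild-type pools. These distances rest on 4 libraries.

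Related genes elsewhere in the genome were set beside the run, 18 loci that encode proteins of the same proline-rich or lipid transfer type. Of these 18, 18 were tested and 0 passed at the adjusted p of 0.05 in edgeR, DESeq2 or limma, while 1 reached an unadjusted p under 0.05 in edgeR, as lower, beside 4.22% of all genes. Their median log2 fold change was 0.047, beside 0.0065 over all genes tested, and they ranged from -0.75 to 0.55. The most abundant were AT2G10940 (1500 and 2026 CPM in the wild-type pools against 1613 and 2447 CPM), the extensin-like gene ELP (AT1G12090; 1027 and 1128 against 1065 and 1137 CPM) and DRN1 (AT2G45180; 615 and 1119 against 975 and 1314 CPM). In each of these 3 the groups overlapped. The lowest value, -0.75, belonged to AT4G22470, whose pools overlapped at 2.75 and 0.724 CPM against 0.442 and 1.53 CPM.

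Genes of systemic acquired resistance, the process AZI1 is known from, were counted next. Of 23 genes, 20 were tested, 1 fell and 0 rose in edgeR, beside 0.0493% and 0.0345% of all genes. Their median log2 fold change was -0.18, with a range from -2.99 to 0.15. In edgeR 6 reached an unadjusted p under 0.05, all 6 lower, beside 4.22% of all genes. The gene that fell was AT5G03350 (LLP1), a lectin-like protein gene, at 9.58 and 9.88 CPM in the wild-type pools and 3.48 and 3.62 CPM in the transgenic pools (edgeR adjusted p = 0.0297). Its call was lost without either 1 of the transgenic replicates. The lowest value of the list belonged to the pathogenesis-related gene PR2 (AT3G57260), at 10 and 45 counts in the wild-type pools against 3 and 3, which did not pass. SARD1 (AT1G73805), a regulator gene of salicylic acid synthesis, followed at -1.76 (SE 0.51), on 20 and 21 counts against 8 and 3, and did not pass either. PR2 and SARD1 were among the 6 above. Both passed the filter on low counts only through their wild-type pools, so the direction of that count was partly fixed beforehand. The highest value of the list, 0.15 (SE 0.23), belonged to another pathogenesis-related gene, PR5 (AT1G75040).

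The most abundant genes of that list were the mitogen-activated protein kinase gene MPK3 (AT3G45640), the glycerol kinase gene GLI1 (AT1G80460, NHO1 in the name table) and the kinase gene MPK6 (AT2G43790). MPK3 had 132.9 and 81.7 CPM in the wild-type pools and 62.2 and 57.8 CPM in the transgenic pools, without overlap (log2 fold change -0.84, SE 0.20; edgeR adjusted p = 0.323), and it passed with DESeq2, as did AT5G03350. As for AZI1, wild-type replicate 1 was the higher wild-type pool. GLI1 had 82.4 and 78.8 against 73.1 and 69.3 CPM, and MPK6 had 53.5 and 59.2 against 56.4 and 65.2 CPM. The groups did not overlap for 7 of the 20 that were lower, beside 19.3% of all genes, and for 1 that was higher, beside 20.2%. PR2 and SARD1 were among the 7, and the 1 was PR5. The transcripts of ALD1, FMO1 and PR1 were not listed in the table.

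**Figure D4:**
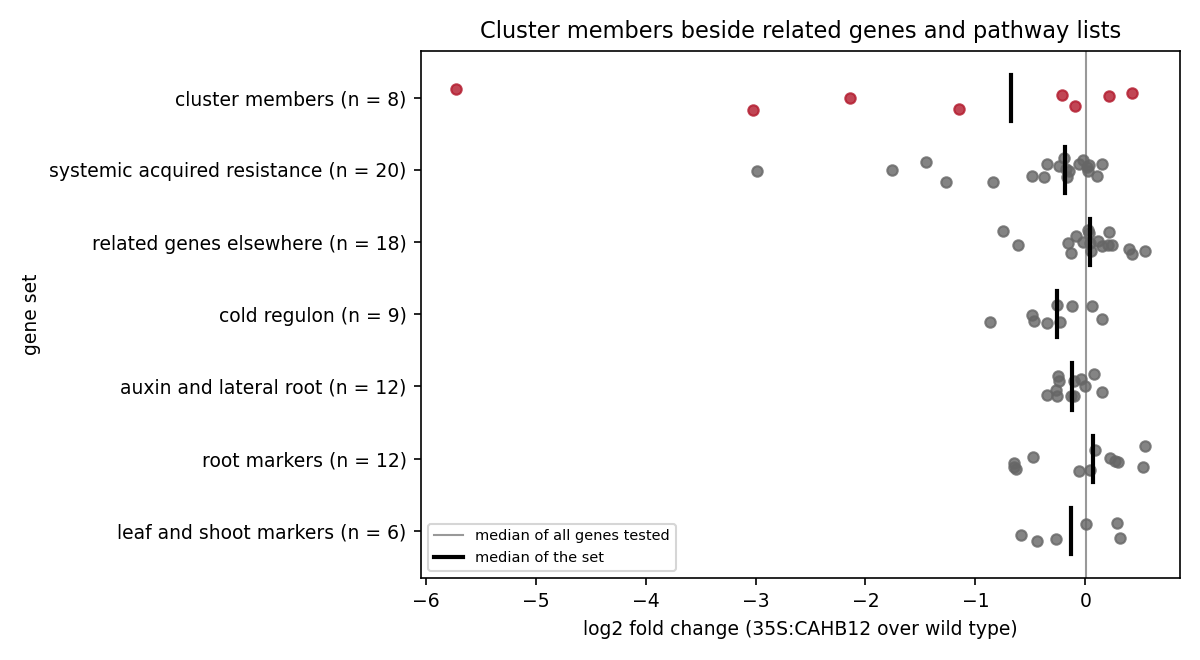
Log2 fold change (x axis) of each tested gene in the cluster and in the 6 lists (y axis, with the number tested), with the median of each set as a black bar and the median of all genes tested, 0.0065, as a grey line. The 4 AZI1-end genes lie between -5.73 and -1.15, whereas the 18 related genes elsewhere lie between -0.75 and 0.55.

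Cold-regulated genes were counted because EARLI1 is known as cold-responsive. Of 13, 9 were tested and 0 passed in edgeR or limma, with 4 at an unadjusted p under 0.05 in edgeR, all 4 lower (beside 4.22% of all genes), and with 1, COR15A, called lower by DESeq2 (beside 0.227%). They had a median log2 fold change of -0.25 and a range from -0.87 to 0.15. COR15A (AT2G42540), a chloroplast protein gene of cold acclimation, had 628 and 666 CPM in the wild-type pools and 485 and 438 CPM in the transgenic pools. The dehydrin gene COR47 (AT1G20440) had 408 and 381 against 351 and 311 CPM, and COR413PM1 (AT2G15970) had 309.5 and 271 against 287 and 248 CPM. The factor genes CBF1, CBF2 and CBF3 were too rare to be tested, at 3 to 19 counts per library.

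Auxin-responsive and lateral root genes were counted beside AIR1. Of 14, 12 were tested and 0 passed in edgeR, DESeq2 or limma, with 1 at an unadjusted p under 0.05 in edgeR, as lower, beside 4.22% of all genes. Their median log2 fold change was -0.12. The groups did not overlap for 7 of the 12 that were lower, beside 19.3% of all genes, and for 2 that were higher, beside 20.2%. AIR12 (AT3G07390) and AIR3 (AT2G04160), found in the same kind of root culture, had -0.25 (SE 0.12) and -0.25 (SE 0.095), and the auxin response factor gene ARF7 (AT5G20730) had -0.10 (SE 0.098). AIR12 and AIR3 were among the 7. AIR1 itself had -0.21 (SE 0.21), with overlapping groups.

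The seedlings held root and shoot, and markers of both were counted. Of the 12 root markers 12 were tested and 0 passed in edgeR or limma, with 3 lower and 1 higher at an unadjusted p under 0.05 in edgeR (beside 4.22% and 3.7% of all genes) and with 1, PHT1;1, called lower by DESeq2 (beside 0.227%). Their median log2 fold change was 0.069, and their summed level was 1426 and 1366 CPM in the wild-type pools and 1698 and 1589 CPM in the transgenic pools. PYK10 (AT3G09260), a root beta-glucosidase gene, supplied most of that sum at 1214 and 1143 against 1524 and 1384 CPM. Without PYK10 the other 11 root markers summed to 211.5 and 222.9 CPM in the wild-type pools and 174 and 205 CPM in the transgenic pools, so the sum then lay lower in the transgenic pools. Of that sum the phosphate transporter gene PHT1;1 (AT5G43350) supplied 97.4 and 98.2 against 58.2 and 66.4 CPM. The lower sum therefore rests on PHT1;1, and the remaining root markers together were not lower in the transgenic pools. SCR (AT3G54220), a root patterning gene, stood at 49.2 and 53.6 against 45.4 and 53.2 CPM. Of the 12 root markers 5 had a log2 fold change below 0. The groups did not overlap for 4 that were lower, beside 19.3% of all genes, and for 3 that were higher, beside 20.2%.

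Of the 6 leaf and shoot markers 6 were tested and 0 passed in edgeR, DESeq2 or limma, with 2 lower and 2 higher at an unadjusted p under 0.05 in edgeR, beside 4.22% and 3.7% of all genes. Their summed level was 23610 and 21230 CPM in the wild-type pools and 20970 and 21220 CPM in the transgenic pools. The Rubisco small subunit gene RBCS1A (AT1G67090) had a log2 fold change of 0.0038 (SE 0.11). The light-harvesting genes CAB3 (AT1G29910) and LHCB1.1 (AT1G29920) had -0.26 (SE 0.11) and -0.44 (SE 0.14). A further light-harvesting gene, LHCB2.1 (AT2G05100), had the lowest value of the list, -0.58 (SE 0.22). CA1 (AT3G01500) and GLDP1 (AT4G33010) went the other way, at 0.32 (SE 0.10) and 0.29 (SE 0.0997). The groups did not overlap for 3 of the 6 that were lower, beside 19.3% of all genes, and for 2 that were higher, beside 20.2%. The part of root and shoot content in the cluster's levels was not tested.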

How the data were processed

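BWA 0.5.8c, Bowtie, edgeR and the build TAIR9 are named in the submitters' processing notes. Which tool made which value, and whether strand was used, is not stated in the sources used here. The values tested were raw counts per locus, per the file headers; every listed locus had at least 11 counts in some library. The deposited CPM and RPKM columns were made by the authors and served only as a check of the units. The other deposited column, a length per locus, had a median of 0.939 times the gene span in RefSeq TAIR10.1 (20420 loci matched by name), so it follows gene spans; the RPKM here use it. That annotation gave names, order and overlaps, and no coordinates are given.

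Counts were fitted with edgeR 4.0.16 in R 4.3.3 (TMM, filterByExpr, glmQLFit, glmQLFTest, no covariate), with Benjamini-Hochberg adjusted p under 0.05 over all genes tested. The SE is the log2 fold change over the root of F. The common biological coefficient of variation was 0.103. The procedure was also run on simulated counts with a single dispersion for all genes. These counts lack the differences in spread between genes, so nothing is read from them about calls of single genes. Alternatives were other scalings, DESeq2 1.42.0, limma 3.58.1 on log2(RPKM + 0.5, 0.1 or 1), no filter, robust fitting, replicate number as a block, leaving out each library in turn, and adjusted p under 0.1. A group left with 1 library is taken to have the spread of the other group.

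The members and lists were chosen with earlier results of these data known. All members were named, with the 3 most abundant tested genes of each list, any called gene, the 3 nearest listed loci on each side and the 3 genes nearest in pattern to EARLI1 and to AZI1. PR2, SARD1, PR5, AT4G22470, the CBF genes, MYB42, LHCB2.1, CA1, GLDP1 and the genes not listed were added after their values were seen. Figures used Python 3.11.15 and matplotlib 3.10.9. The small RNA table was not used here.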

Additional observations from a re-analysis of the deposited data

How the results depend on the processing

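EARLI1 passed as lower under every alternative that used all 4 libraries. The gene run was selected on this difference in the same libraries, so that result was largely fixed beforehand. The log2 fold changes of EARLI1, AZI1, AT4G12490, AT4G12500, AT4G12510 and AIR1 kept their direction under every alternative. With DESeq2, 76 genes passed, which is 0.367% of all genes. Among them were 3 members, 2 genes of the resistance list, 1 cold gene and 1 root marker. All of these were lower, beside 0.227% of all genes. AZI1 stood at -2.16 and AT4G12490 at -6.06, and both passed. limma called 10 genes with each pseudocount and robust fitting 31. At an adjusted p under 0.1 edgeR called 41 genes, which is 0.202% of all genes. Among them were 3 members, 1 resistance gene and 1 root marker, all lower, beside 0.0985% of all genes. The labels give both groups replicate numbers 1 and 2 but no shared origin, and same-numbered pools deviated together with r = 0.228 over 20298 genes. With a replicate block, 596 genes passed, which is 2.94% of all genes. Among them were 3 members, all 3 lower, beside 1.82% of all genes (AZI1 at -2.08 and AT4G12490 at -5.74 among them). In either direction 4 resistance genes, 1 related gene elsewhere, 3 cold genes, 2 root markers and 2 leaf markers passed, beside that 2.94%.

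With 1 library left out, the number of genes called ranged from 16 to 411, of members from 1 to 3, of resistance genes from 0 to 3, of related genes elsewhere from 0 to 1, of cold genes from 0 to 1, of root markers from 0 to 2, of leaf markers from 0 to 1, and of auxin genes it was 0 throughout. For single members the log2 fold changes then spanned -3.22 to -2.80 for EARLI1, -2.57 to -1.57 for AZI1, -8.12 to -4.91 for AT4G12490, -1.19 to -1.10 for AT4G12500, 0.37 to 0.47 for AT4G12510, -0.018 to 0.47 for AT4G12520 (-0.0092 without transgenic replicate 2), -0.35 to 0.19 for AT4G12545 and -0.45 to -0.0061 for AIR1. Without division by length, EARLI1 made up 61.9% of the summed cluster CPM in wild type and 25.95% in transgenic seedlings. The cause of these shifts was not tested. Depth limits AT4G12490 and AT4G12500 most, at no more than 45 counts in any library, and with 2 pools per group the spread may be technical.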
